A study of Homo sapiens with 9 samples.

Results

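The serum response factor gene SRF and 9 genes of the actin cytoskeleton that are widely used as readouts of SRF activity, ACTA2, TAGLN, CNN1, CNN2, MYL9, TPM1, TPM2, VCL and ACTN1, were examined in ovarian cancer cells in which the transcription kinase CDK9 was altered or the receptor tyrosine kinase ALK was inhibited. These 10 genes were taken by name from the 58735 genes of the deposited count table, and the choice was made with earlier results of these data known. All 10 were among the 16350 genes with enough counts to be tested. RNA was sequenced from SKOV3 cells, an established human ovarian carcinoma line. One group expressed wild-type (WT) CDK9, one expressed WT CDK9 and received an ALK inhibitor for 24 hours, and one expressed CDK9 in which tyrosine 19 was replaced by phenylalanine (Tyr19Phe CDK9), with 3 libraries in each group. The study's other experiments used stable lines in which these CDK9 forms replaced depleted endogenous CDK9, but whether the sequenced cells were those lines, whether a line was 1 clone, which promoter drove CDK9 and which inhibitor was used at what dose are not given in the sources used here. The cells with each CDK9 form were separate cells, so the substitution and any other difference between the cells cannot be told apart.

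SRF is a transcription factor that binds a short DNA element, the CArG box, in front of many genes of the cytoskeleton and of the early growth response. Its partners MRTFA and MRTFB are held by unpolymerised actin and move to the nucleus when actin assembles into filaments, which links SRF target transcription to the state of the cytoskeleton. The ternary complex factors ELK1, ELK3 and ELK4 instead link SRF to growth factor signalling and the immediate early genes. In smooth muscle and in contractile fibroblasts this circuit drives the contractile program, and in carcinoma cells the same genes build stress fibres and focal adhesions. CDK9 is the catalytic subunit of the elongation factor P-TEFb, which releases paused RNA polymerase II.

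Library totals ran from 18939449 to 19731228 counts with WT CDK9, from 18169050 to 20974903 with the inhibitor and from 26485891 to 29320184 with Tyr19Phe CDK9, so the Tyr19Phe libraries were deeper. Counts are given as CPM, scaled to a common library total, on which 3 counts, taken as the detection floor, equalled 0.102 to 0.1651. One inhibitor library and one Tyr19Phe library stood apart in the number of genes with a count, 19944 against 21911 and 21915, and 20635 against 22609 and 22744. CDK9 itself, which the counts cannot split into WT and Tyr19Phe RNA, measured 47.6 to 49.7, 43.8 to 47.3 and 52.4 to 59.5 CPM in the WT, inhibitor and Tyr19Phe libraries, and passed the test in neither comparison with WT (adjusted p = 0.665 and 0.106). Of 13 epithelial and ovarian carcinoma markers, 10, 11 and 11 had at least 10 counts in every library of the respective groups, led by ERBB2, KRT7 and KRT8, while CDH1, the epithelial cadherin, had 1 to 18 counts and MUC16 0 to 9. The summed level of the 13 markers was 5368 to 5562 CPM with WT CDK9, 5896 to 6039 with the inhibitor and 5181 to 5377 with Tyr19Phe. Of the 12 tested, 2 were called higher and 1 lower with the inhibitor, and 2 higher and 5 lower with Tyr19Phe (all tested genes, 1.82% and 2.73%, and 7.61% and 10.4%). With the inhibitor, ERBB2 (log2 fold change 0.54) and the keratin KRT19 (0.21) were higher and KRT7 (-0.35) lower. With Tyr19Phe, the glycoprotein MSLN (-1.67), CLDN3 (-1.39), KRT19 (-1.24), the adhesion molecule EPCAM (-0.82) and ERBB2 (-0.29) were lower. KRT8 (0.38) and KRT18 (0.39) were higher. The part of these markers in the results below was not tested. Nothing in the labels says that the 3 libraries of a group came from separate cultures, so all p-values measure the spread between libraries, which may be technical.

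The CArG box was searched in the RefSeq promoter windows of the members, from 250 bases before to 50 bases after each annotated transcription start (build GRCh38.p14). Entries were matched for 8 of the 10 genes, all but TAGLN and MYL9. The consensus was held by windows of SRF, CNN2 and ACTN1, and by 1.29% of all 35116 windows, and a match with up to 1 mismatch was held by 18.9% of all windows. The motif reads as itself on the other strand, so 1 search covered both strands. The sequences below are the bases in front of the start, read 5′ to 3′ on the strand of the gene, and are shown because they hold the matches, which are in capitals. The SRF stretch is chr6:43171169-43171268 on the plus strand, CNN2 is chr19:1026508-1026607 on the plus strand, ACTA2 is chr10:88952774-88952923 on the minus strand and ACTN1 is chr14:68977567-68977816 on the minus strand.
SRF: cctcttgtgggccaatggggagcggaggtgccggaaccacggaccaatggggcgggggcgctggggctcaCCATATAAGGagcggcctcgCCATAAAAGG
CNN2: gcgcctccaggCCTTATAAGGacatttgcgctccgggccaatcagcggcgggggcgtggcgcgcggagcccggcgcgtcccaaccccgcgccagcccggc
ACTA2: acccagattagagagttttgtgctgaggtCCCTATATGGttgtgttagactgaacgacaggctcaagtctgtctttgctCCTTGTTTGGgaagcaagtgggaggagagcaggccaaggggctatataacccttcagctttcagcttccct
ACTN1: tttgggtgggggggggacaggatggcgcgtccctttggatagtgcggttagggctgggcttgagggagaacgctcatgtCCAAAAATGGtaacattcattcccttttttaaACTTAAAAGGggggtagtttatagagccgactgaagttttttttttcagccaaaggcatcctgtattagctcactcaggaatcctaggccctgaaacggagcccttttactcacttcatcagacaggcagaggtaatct
The SRF window shown, 1 of 2 for that gene, held 2 consensus boxes, starting 30 and 10 bases before the start. It also held a box with 1 mismatch at position 14 after the start, outside the stretch printed, and the other SRF window held none. CNN2 held 1 consensus box, starting 89 bases before the start. The stretch shown for ACTA2, whose gene encodes smooth muscle actin, belongs to 1 of its 2 windows and holds 2 boxes with 1 mismatch each, 121 and 71 bases before the start. The ACTN1 window shown, 1 of 4 for that gene, held a consensus box 171 bases and a box with 1 mismatch 139 bases before the start. No box with up to 1 mismatch was found in the windows of CNN1, TPM1, TPM2 and VCL. These are matches of letters, and binding of SRF was not measured.

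Of the 10 genes, 7 were abundant and 3 had few counts. For comparison between genes, CPM was divided by the gene length of the deposited table. Which transcripts the cells made was not tested, so the order of genes per kilobase depends on that length. Averaged over the 9 libraries, VCL (vinculin, which couples integrin adhesions to actin) had the highest level, 131 CPM per kilobase, followed by TAGLN (transgelin, an actin crosslinker of the calponin family) at 117. TPM2 and TPM1, tropomyosins that coat actin filaments, had 76.0 and 50.2 CPM per kilobase, with lengths of 3248 and 12876 bases. Before division by length the order was reversed, with 243 CPM for TPM2 and 646 for TPM1 in the WT group. CNN2, a calponin found outside smooth muscle, had 72.3, and ACTN1, the filament crosslinker alpha-actinin 1, had 70.2. SRF had 23.3 CPM per kilobase. The library ranges of VCL and TAGLN overlapped (119 to 151 and 93.3 to 150), as did those of TPM2, CNN2 and ACTN1 (67.3 to 84.8, 58.4 to 89.2 and 63.9 to 74.1), so the order among those was not separated over all libraries, although within the WT and the inhibitor groups VCL lay above TAGLN. The levels of TAGLN lay above those of TPM2, those of ACTN1 above TPM1 and those of TPM1 above SRF in every library. The smooth muscle genes MYL9 (myosin regulatory light chain 9), ACTA2 and CNN1 (calponin 1) were far lower, at 2.84, 1.44 and 0.459 CPM per kilobase. CNN1 had 13 to 40 counts per library and ACTA2 47 to 132. The plot of levels per kilobase shows these 2 tiers.

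**Figure D1:**
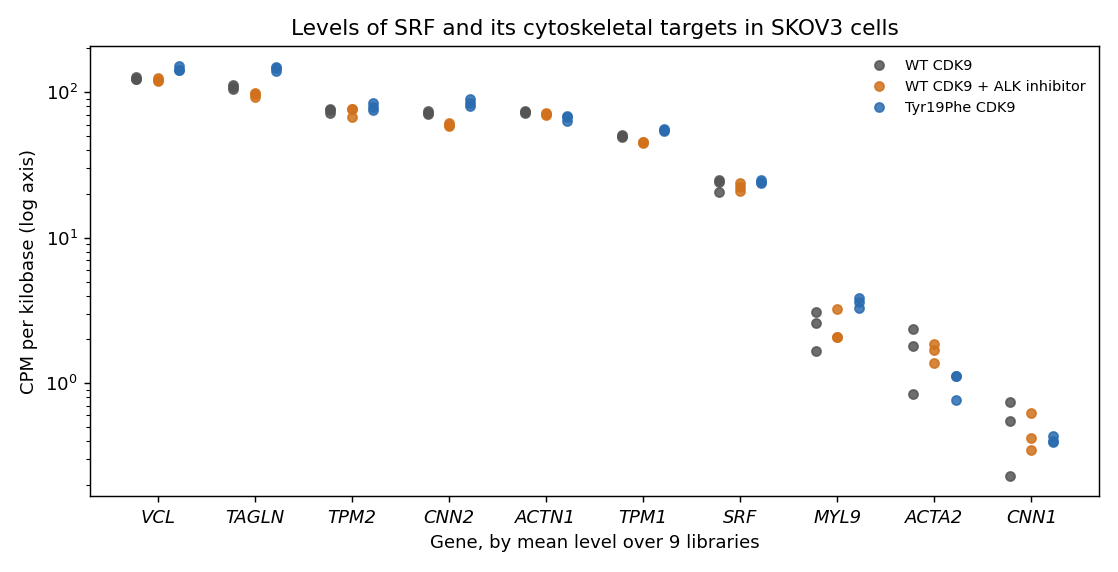
Level of each gene in CPM per kilobase of gene length (log axis), 1 point per library, coloured by group, with genes ordered by their mean over 9 libraries. VCL lies highest at a mean of 131 and CNN1 lowest at 0.459, and MYL9, ACTA2 and CNN1 form a separate low tier.

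The first comparison asked what 24 hours of ALK inhibition did to these genes in cells with WT CDK9. TAGLN, CNN2 and TPM1 fell, with changes of -11.1%, -17.3% and -9.436%, and no member rose. With edgeR's quasi-likelihood test and Benjamini-Hochberg adjustment over all tested genes, 3 of 10 members were called lower at an adjusted p under 0.05 and 0 of 10 higher (0 also at an unadjusted p under 0.05 and with DESeq2), against 2.73% of all tested genes called lower and 1.82% called higher. The median log2 fold change of the members was -0.06, beside 0.00 over all tested genes. Because the members were chosen with earlier results of these data known, their shares here and below are a description only. The shares of all tested genes include genes with few counts and were not matched to the levels of the members. The second comparison asked how cells with Tyr19Phe CDK9 differed from those with WT CDK9. TAGLN, CNN2, TPM1 and VCL were higher with Tyr19Phe, by 33.4%, 17.1%, 9.68% and 16.2%, and ACTN1 was lower, with a change of -8.65%. That is 4 of 10 called higher and 1 of 10 lower, against 7.61% and 10.4% of all tested genes, with a member median of 0.11 beside 0.00. Because both comparisons share the WT libraries, the inhibitor and Tyr19Phe groups were also compared directly, which tests the difference between both effects. TAGLN, CNN2, TPM1, VCL and MYL9 were higher with Tyr19Phe than with the inhibitor, 5 of 10 against 9.57% of all tested genes, and 0 of 10 were lower against 11.1%. At an unadjusted p under 0.05, 2 were lower in the direct comparison, ACTA2 and ACTN1, but both missed the adjusted threshold in edgeR (adjusted p = 0.0821 and 0.104), and DESeq2 called 1 of them, ACTN1 (adjusted p = 0.0448).

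**Figure D2:**
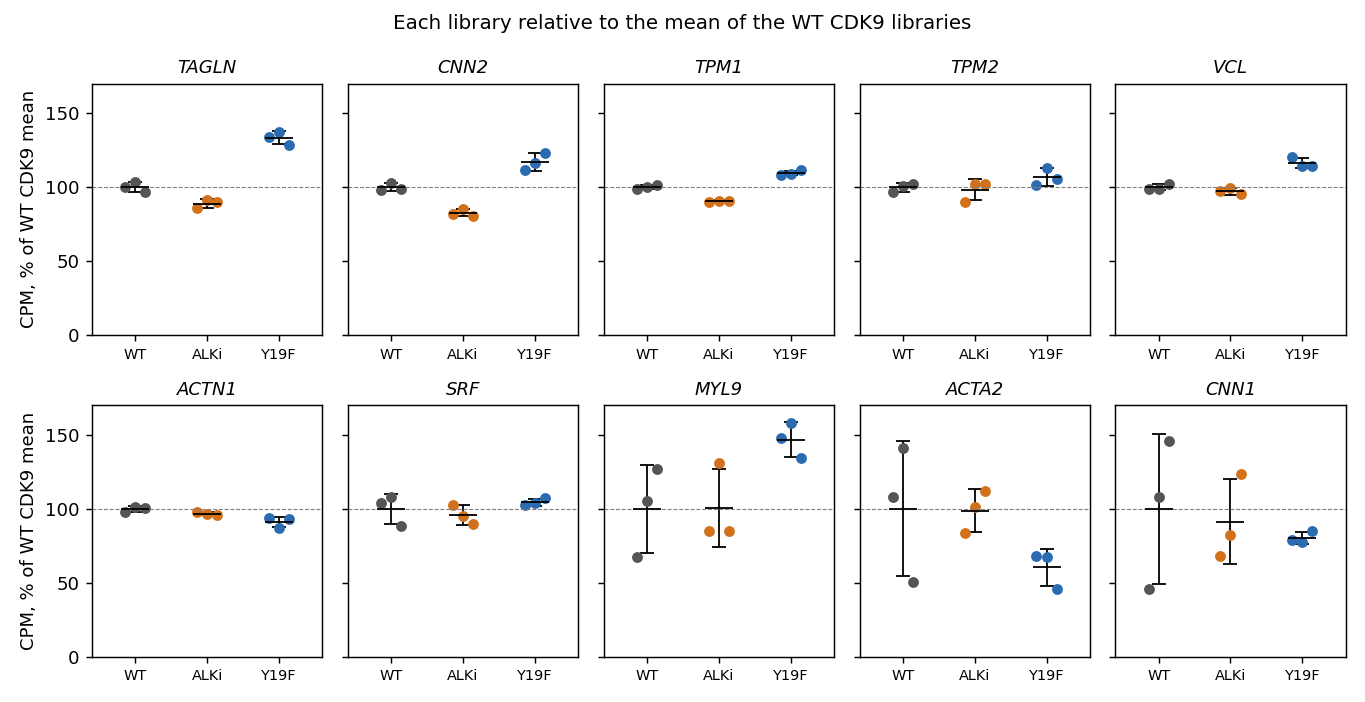
CPM of each gene in each library as a percentage of the mean of the 3 WT CDK9 libraries (points), with group mean and SD (bars), for WT CDK9, WT CDK9 with the ALK inhibitor (ALKi) and Tyr19Phe CDK9 (Y19F). TAGLN, CNN2 and TPM1 lie below the WT libraries with the inhibitor and above them with Tyr19Phe, TAGLN at 85.6 to 91.4% and 129 to 138%.

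TAGLN, which is among the earliest markers of smooth muscle differentiation, measured 427, 442 and 412 CPM with WT CDK9, 366, 390 and 383 CPM with the inhibitor and 572, 587 and 549 CPM with Tyr19Phe CDK9. The 3 groups did not overlap, with the inhibitor lowest and Tyr19Phe highest. The group means were 427 ± 14.9, 380 ± 12.7 and 569 ± 19.2 CPM (SD, n = 3 each). The log2 fold change was -0.17 with the inhibitor (SE 0.04, adjusted p = 0.00786), 0.42 with Tyr19Phe (SE 0.04, adjusted p = 1.89e-09) and 0.59 between Tyr19Phe and the inhibitor (SE 0.04, adjusted p = 6.51e-13), all from edgeR. The call of the inhibitor's effect was lost without WT replicate 2 (adjusted p = 0.0612) or inhibitor replicate 1 (adjusted p = 0.0918), while the calls in the other comparisons held in every fit made. TAGLN (ENSG00000149591, chr11:117199321-117204782, plus strand, hg38) overlaps the proprotein convertase gene PCSK7 on the opposite strand over 446 of its 5462 bases in the deposited annotation. In the GENCODE 44 annotation they share 2233 exon bases, 34.1% of those of TAGLN. Of the 50-base stretches of TAGLN transcripts there, 45.6% also occur in 3 other genes on either strand, most in ENSG00000280143. Whether reads were counted by strand is not given in the sources used here. PCSK7 averaged 42.1 CPM and passed the test in neither comparison (log2 fold change 0.07 in both, adjusted p = 0.817 and 0.672).

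CNN2, which binds actin filaments and restrains myosin activity, moved in the same pattern. It measured 259, 272 and 261 CPM with WT CDK9, 216, 225 and 213 CPM with the inhibitor and 295, 306 and 325 CPM with Tyr19Phe CDK9. The groups again did not overlap. The log2 fold change was -0.27 with the inhibitor (SE 0.04, adjusted p = 9.44e-05), 0.23 with Tyr19Phe (SE 0.04, adjusted p = 0.00028) and 0.50 between the latter and the former (SE 0.04, adjusted p = 2.91e-10). CNN2 was the only member whose call held in all 3 comparisons under every alternative fit. It lies at chr19:1026581-1039068 on the plus strand (ENSG00000064666), and its consensus CArG box is the one shown above.

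TPM1, whose products stabilise actin filaments and guide myosin binding, showed the smallest spread between libraries of the 3. Its libraries gave 637, 648 and 654 CPM with WT CDK9, 581, 587 and 587 CPM with the inhibitor and 701, 704 and 720 CPM with Tyr19Phe CDK9. The groups did not overlap, although each difference from WT was under 10%. The log2 fold change was -0.14 with the inhibitor (SE 0.03, adjusted p = 0.00898), 0.13 with Tyr19Phe (SE 0.03, adjusted p = 0.005) and 0.28 in the direct comparison (SE 0.03, adjusted p = 2.25e-07). The inhibitor's call was lost without WT replicate 3 (adjusted p = 0.0527) or inhibitor replicate 1 (adjusted p = 0.0525). TPM1 lies at chr15:63042632-63071915 on the plus strand (ENSG00000140416), and the overlapping antisense gene TPM1-AS averaged 2.13 CPM.

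The second tropomyosin gene, TPM2 (ENSG00000198467, chr9:35681992-35690121, minus strand), gave 234, 246 and 248.6 CPM with WT CDK9, 219, 248.7 and 248 CPM with the inhibitor and 246, 275 and 257 CPM with Tyr19Phe CDK9. The groups overlapped in every pair. Neither the inhibitor (log2 fold change -0.03, 95% interval -0.13 to 0.08) nor Tyr19Phe (0.10, -0.01 to 0.20) passed the test. The direct comparison gave 0.12 (SE 0.05, adjusted p = 0.0825), and adjusted p = 0.0364 with a replicate block and 0.0405 without Tyr19Phe replicate 1. The other 13 of 15 alternative fits did not call it, and values without 1 library ran from 0.06 to 0.16. The ratio of TPM1 to TPM2 per length was 0.671 ± 0.012 with WT, 0.621 ± 0.043 with the inhibitor and 0.690 ± 0.039 with Tyr19Phe (SD, n = 3 each), with overlapping ranges between WT and each of the others.

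The adhesion genes VCL and ACTN1 moved in opposite directions with Tyr19Phe CDK9. VCL (ENSG00000035403, chr10:73995193-74121363, plus strand) gave 1238, 1240.2 and 1282 CPM with WT CDK9, 1218, 1250 and 1192 CPM with the inhibitor and 1505, 1430.3 and 1433 CPM with Tyr19Phe CDK9. All 3 Tyr19Phe libraries lay above the other 6, while WT and inhibitor libraries overlapped. The log2 fold change was -0.04 with the inhibitor (adjusted p = 0.658), 0.22 with Tyr19Phe (SE 0.03, adjusted p = 6.61e-06) and 0.26 in the direct comparison (SE 0.03, adjusted p = 3.45e-07). The gene's last 1109 bases overlap AP3M1 on the other strand, which averaged 83.8 CPM and had a log2 fold change of 0.16 with Tyr19Phe (adjusted p = 0.0646). ACTN1 (ENSG00000072110, chr14:68874143-68979440, minus strand) gave 761, 787 and 783 CPM with WT CDK9, 760.2, 748 and 745 CPM with the inhibitor and 728, 679 and 723 CPM with Tyr19Phe CDK9. The inhibitor libraries lay just below the WT ones and the Tyr19Phe libraries lower still. Only the Tyr19Phe difference from WT passed the test, at -0.13 (SE 0.04, adjusted p = 0.00789), against -0.05 for the inhibitor (adjusted p = 0.592), and that call was lost without Tyr19Phe replicate 2 (adjusted p = 0.0901).

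**Figure D3:**
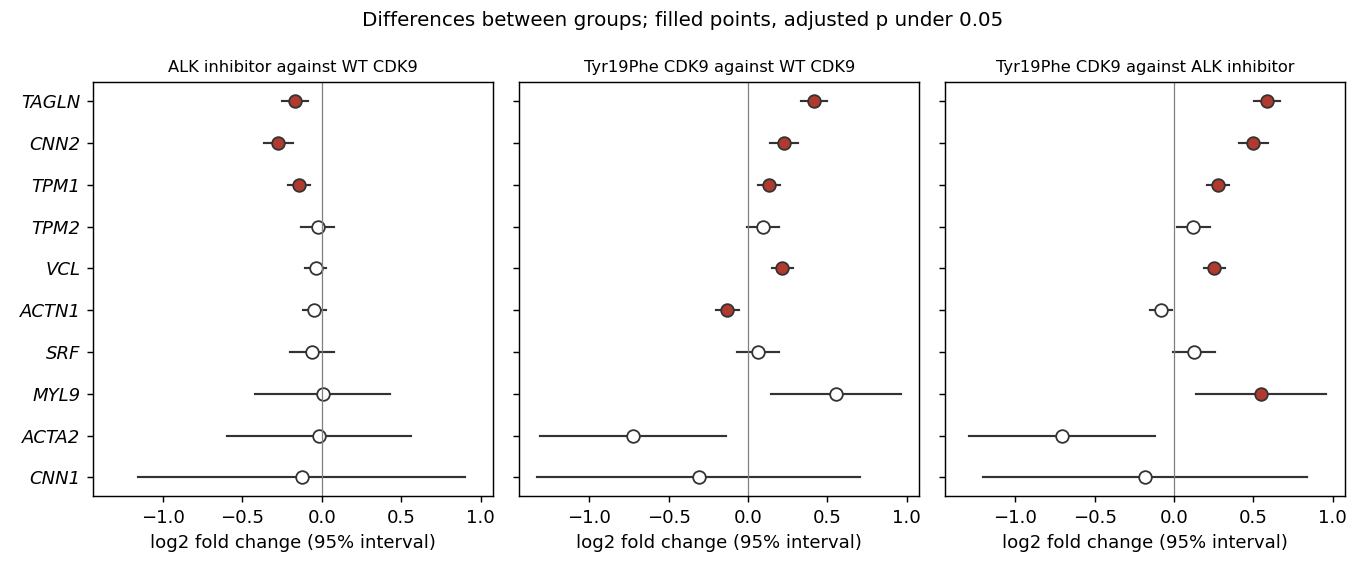
Log2 fold change with its 95% interval for each gene in the 3 comparisons (edgeR quasi-likelihood fit of all 9 libraries), filled where the adjusted p was under 0.05. TAGLN, CNN2 and TPM1 are filled in all 3 panels, left of 0 with the inhibitor and right of 0 with Tyr19Phe, and CNN1 has the widest intervals.

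The RNA of SRF itself passed the test in no comparison. SRF (ENSG00000112658, chr6:43171299-43181507, plus strand) gave 101, 105 and 86.5 CPM with WT CDK9, 100.3, 93.1 and 87.6 CPM with the inhibitor and 100.4, 101 and 105 CPM with Tyr19Phe CDK9. WT replicate 3 was the lowest of the 9, and the WT range took in every library of both other groups. The log2 fold change was -0.06 with the inhibitor (95% interval -0.20 to 0.07, adjusted p = 0.764) and 0.06 with Tyr19Phe (-0.07 to 0.20, adjusted p = 0.583), and the intervals leave room for changes as large as that of TPM1. The 3 tested genes whose log2 CPM correlated most with SRF over the 9 libraries were the antisense RNA AC021205.3 (r = 0.947), ENG (r = 0.938) and SELENOH (r = 0.938), of which the first pair averaged under 1 CPM. For TAGLN, they were TRIB3 (r = 0.992), MT2A (r = 0.985) and C12orf75 (r = 0.985). MT2A, a metal-binding metallothionein, fell with the inhibitor (log2 fold change -0.33, adjusted p = 2.23e-05) and was higher with Tyr19Phe (0.76, adjusted p = 1.62e-13), and TRIB3, a pseudokinase of the stress response, was called with Tyr19Phe (0.83, adjusted p = 2.24e-07) and not with the inhibitor (-0.27, adjusted p = 0.189). These correlations describe 9 libraries that share groups and depth and are given without a test.

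The 3 smooth muscle genes of low level carried little power. MYL9 (ENSG00000101335, chr20:36541484-36551447, plus strand) had 91 to 164 counts with WT CDK9, 114 to 165 counts with the inhibitor and 246 to 307 with Tyr19Phe CDK9. Its CPM were 4.67, 7.28 and 8.77, then 5.89, 9.06 and 5.89, then 10.2, 10.9 and 9.28, so the Tyr19Phe libraries lay above the other 6. The difference was 0.56 from WT (SE 0.20, adjusted p = 0.0514) and 0.55 from the inhibitor (SE 0.20, adjusted p = 0.0487), on either side of the threshold by little. The call against the inhibitor was lost in 5 of the 6 fits that left out a library and with DESeq2 (adjusted p = 0.089). MYL9 against WT was called in several alternatives, with adjusted p = 0.0307 under a replicate block. Of the 6 fits against WT that left out a library, 1 called it, with values from 0.34 to 0.77. ACTA2 (ENSG00000107796, chr10:88935074-88991339, minus strand) gave 5.34, 6.97 and 2.51 CPM with WT CDK9, 4.13, 4.998 and 5.53 CPM with the inhibitor and 3.35, 3.35 and 2.26 CPM with Tyr19Phe CDK9. WT replicate 3 lay at the Tyr19Phe level. The log2 fold change with Tyr19Phe was -0.72 (SE 0.29, adjusted p = 0.081), and the inhibitor gave -0.02 (SE 0.29, adjusted p = 0.991). Of the 6 fits of the Tyr19Phe difference that left out a library, 1 called ACTA2. That fit, without WT replicate 3, gave -1.03 (adjusted p = 0.00648), while the fit without WT replicate 2 gave -0.39 (adjusted p = 0.48). ACTA2 overlaps FAS and STAMBPL1 on the opposite strand, which averaged 13.2 and 3.24 CPM. CNN1 (ENSG00000130176, chr19:11538717-11550323, plus strand) ranged from 0.667 to 2.14 CPM over the 3 WT libraries alone, which took in all other libraries, and its intervals reached from -1.16 to 0.90 for the inhibitor and from -1.33 to 0.71 for Tyr19Phe.

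In bulk RNA, fewer cells of a type and less RNA per cell cannot be told apart, so markers of contractile cells were read beside these genes. Myocardin (MYOCD), the smooth muscle partner of SRF, had 0 counts in all 9 libraries, the intermediate filament gene DES 0 to 4, LMOD1 0 to 11 and the smooth muscle myosin MYH11 6 to 33. In each group, 4 of the 15 smooth muscle and fibroblast markers had at least 10 counts in every library, and 3 to 4 were at 0 throughout. Their summed level was 114 to 120 CPM with WT, 128 to 167 with the inhibitor and 42.2 to 56.6 with Tyr19Phe, most of it COL1A1, the collagen chain, which rose with the inhibitor (log2 fold change 0.35, adjusted p = 0.0111) and was lower with Tyr19Phe (-1.46, adjusted p = 1.04e-13). The directions of COL1A1, 1 gene, were opposite to those of TAGLN, CNN2 and TPM1. COL1A2 rose with the inhibitor (0.70, adjusted p = 0.021) and was not called with Tyr19Phe (-0.08, adjusted p = 0.844). MYH11 (-1.11 with the inhibitor and -0.41 with Tyr19Phe), SYNPO2 and THY1 were called in neither comparison. The 7 white blood cell and endothelial markers summed to 0.369 to 0.855, 0.237 to 0.714 and 1.06 to 1.495 CPM, and the part of any of these markers in the results was not tested.

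Neighbouring genes showed where a member moved along with its chromosomal region. The counts below stand beside 7.61% of all tested genes called higher and 10.4% lower with Tyr19Phe. In the direct comparison those shares were 9.57% and 11.1%. Around VCL, the median log2 fold change with Tyr19Phe of the 79 tested genes that start within 5 Mb was 0.17, near the 0.22 of VCL, and 18 of them were called higher and 1 lower. Around ACTN1 the 76 neighbours had a median of -0.14, beside -0.13 for ACTN1, with 20 called lower and none higher at the adjusted threshold. With 2 and 20 Mb on either side the VCL median was 0.20 and 0.13, and that of ACTN1 stayed at -0.14. The neighbours of TAGLN had a median of -0.01 with Tyr19Phe (75 genes, 8 called higher and 6 lower) beside 0.42 for TAGLN, and those of TPM1 had -0.06 (77 genes, 1 higher and 11 lower) beside 0.13 for TPM1. Those of CNN2 had 0.05 (164 genes, 22 higher and 7 lower) beside 0.23 for CNN2. Around the uncalled SRF and TPM2 the medians were 0.09 (83 genes, 8 higher and 4 lower) and 0.04 (94 genes, 9 higher and 3 lower). SRF and TPM2 themselves had 0.06 and 0.10. With the inhibitor, the medians around TAGLN, CNN2 and TPM1 were -0.02, -0.04 and -0.04. In the direct comparison they were 0.07, 0.12 and -0.04, with 11 higher and 6 lower, 39 higher and 8 lower, and 2 higher and 8 lower, so the CNN2 neighbours had the sign of CNN2 in all 3 comparisons at a smaller size. With Tyr19Phe against WT, the SD over libraries of the CNN2 neighbour median, 0.0635, exceeded the median itself, 0.0522. DNA copy number was not measured in these data, and its part was not tested.

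**Figure D4:**
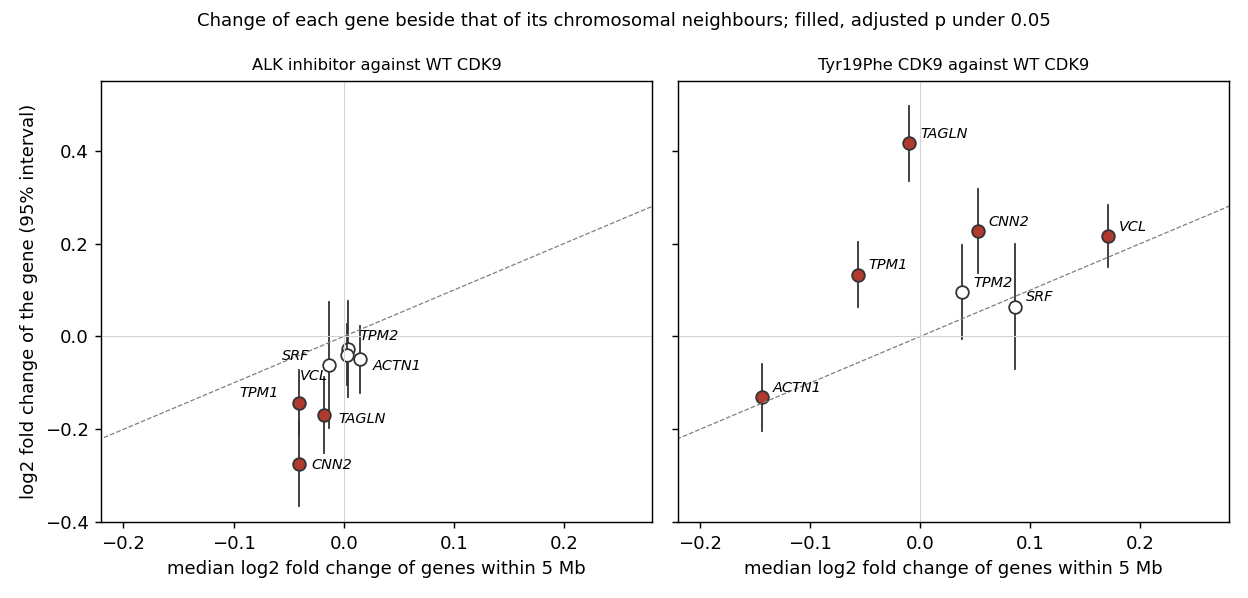
Log2 fold change of 7 abundant genes (95% interval, vertical) against the median log2 fold change of the tested genes starting within 5 Mb (horizontal), for the inhibitor and for Tyr19Phe. The dashed line marks equal values. With Tyr19Phe, VCL and ACTN1 lie near the line while TAGLN (0.42 against -0.01), CNN2 and TPM1 lie above it.

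Around the 10 genes, 5 lists of the pathway held 73 genes, of which 67 were tested. With the inhibitor 9 were called higher and 7 lower, and with Tyr19Phe 22 higher and 14 lower, with median log2 fold changes of -0.02 and 0.02. The counts of these lists stand beside 1.82% of all tested genes called higher and 2.73% lower with the inhibitor, and 7.61% higher and 10.4% lower with Tyr19Phe. Among the regulators of SRF, ELK3 was higher in both comparisons (0.43, adjusted p = 3.15e-06, and 0.39, adjusted p = 5.4e-06). MRTFA was higher with Tyr19Phe (0.27, SE 0.08, adjusted p = 0.0111) and not called with the inhibitor (-0.09, adjusted p = 0.709), and the direct comparison gave a difference (0.36, adjusted p = 0.000821). Its relative MRTFB had -0.23 with Tyr19Phe (adjusted p = 0.0516) and 0.02 with the inhibitor, and was lower in the direct comparison (-0.26, adjusted p = 0.0268). ELK4 and FHL2, a LIM protein that binds SRF, were lower with Tyr19Phe (-0.22, adjusted p = 0.000725, and -0.14, adjusted p = 0.0202).

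Among the actins, ACTB, the beta-actin gene and an SRF target, had the same Tyr19Phe direction as TAGLN. Its mean was 6299 ± 54.0 CPM with WT, 6209.6 ± 185 with the inhibitor and 7419 ± 181 with Tyr19Phe (SD, n = 3 each), which gave 0.24 with Tyr19Phe (SE 0.03, adjusted p = 1.55e-08) and -0.02 with the inhibitor (adjusted p = 0.798). Gamma-actin (ACTG1) was called in neither (-0.07, adjusted p = 0.0681, and -0.03, adjusted p = 0.484). The ratio of ACTB to ACTG1 per length was 0.681 ± 0.003 with WT, 0.706 ± 0.011 with the inhibitor and 0.817 ± 0.013 with Tyr19Phe, and the 3 ranges did not overlap. The heart actin ACTC1 gave -1.33 and -0.50 without a call, and ACTA1 and ACTG2 had too few counts to be tested.

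Of 27 tested genes that bind actin or contract, 2 were higher and 6 lower with the inhibitor, and 8 higher and 5 lower with Tyr19Phe (all tested genes, 1.82% and 2.73%, and 7.61% and 10.4%), with medians of -0.02 and 0.06. CNN3 fell with the inhibitor (-0.15, adjusted p = 0.0159) and gave 0.10 with Tyr19Phe (adjusted p = 0.0588), TAGLN2 and TPM4 were higher with Tyr19Phe (0.13, adjusted p = 0.0106, and 0.17, adjusted p = 9.94e-05), and TPM3 was called in neither. Among the light chain genes related to MYL9, named here after their values were seen, MYL12B fell with the inhibitor (-0.14, adjusted p = 0.0151) and was higher with Tyr19Phe (0.12, adjusted p = 0.0188), MYL12A was higher with Tyr19Phe (0.22, adjusted p = 0.000173), and MYL6 was called in neither. ACTN4 was lower with Tyr19Phe like ACTN1 (-0.12, adjusted p = 0.00526), and the ratio of ACTN4 to ACTN1 per length lay at 4.14, 4.16 and 4.19 in the 3 groups. The ratio of TAGLN2 to TAGLN was 2.70 ± 0.13 with WT, 3.15 ± 0.14 with the inhibitor and 2.22 ± 0.07 with Tyr19Phe, without overlap of the ranges. Beyond the relatives, the myosin kinase gene MYLK and the coronin CORO1C fell with the inhibitor (-0.45, adjusted p = 5.97e-06, and -0.16, adjusted p = 0.01), and the filament-severing gelsolin GSN (0.44, adjusted p = 4.06e-05) and PDLIM7 rose (0.14, adjusted p = 0.031). With Tyr19Phe, the supervillin gene SVIL was higher (0.56, adjusted p = 5.96e-08), and lower were MYLK (-0.23, adjusted p = 0.00631), filamin A (FLNA, -0.15, adjusted p = 6.34e-05) and LASP1 (-0.18, adjusted p = 0.000476).

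Of 20 focal adhesion genes, 3 were higher and 1 lower with the inhibitor, and 8 higher and 4 lower with Tyr19Phe (all tested genes, 1.82% and 2.73%, and 7.61% and 10.4%), with medians of 0.00 and 0.06. The fibronectin receptor chains ITGA5 and ITGB1 were higher in both comparisons, at 0.44 and 0.41 for ITGA5 (adjusted p = 4.68e-06 and 3.08e-06) and at 0.13 and 0.21 for ITGB1 (adjusted p = 0.00528 and 1.39e-06), while the tensin TNS3 was lower in both (-0.25, adjusted p = 0.0313, and -0.28, adjusted p = 0.00313). TGFB1I1, the paxillin relative Hic-5, was higher with Tyr19Phe alone among the comparisons with WT (0.49, adjusted p = 8.94e-09, against -0.04 with the inhibitor), and the direct comparison gave 0.53 (adjusted p = 1.21e-09).

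The immediate early targets depend on SRF and the ternary complex factors. Of 10 tested genes, 3 were higher with the inhibitor and the other 7 not called, and 3 were higher and 3 lower with Tyr19Phe (all tested genes, 1.82% and 2.73%, and 7.61% and 10.4%), with medians of -0.04 and -0.37. JUNB, IER3 and IER2 were higher in both comparisons, at 0.46, 0.22 and 0.41 with the inhibitor (adjusted p = 2.1e-05, 0.00797 and 0.00968) and 0.25, 0.35 and 0.37 with Tyr19Phe (adjusted p = 0.00893, 5.93e-06 and 0.00553). EGR1 and the phosphatase gene DUSP5 were lower with Tyr19Phe (-0.81, adjusted p = 8.22e-06, and -0.77, adjusted p = 2.06e-08) and not called with the inhibitor (-0.33, adjusted p = 0.143, and 0.02, adjusted p = 0.961).

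**Figure D5:**
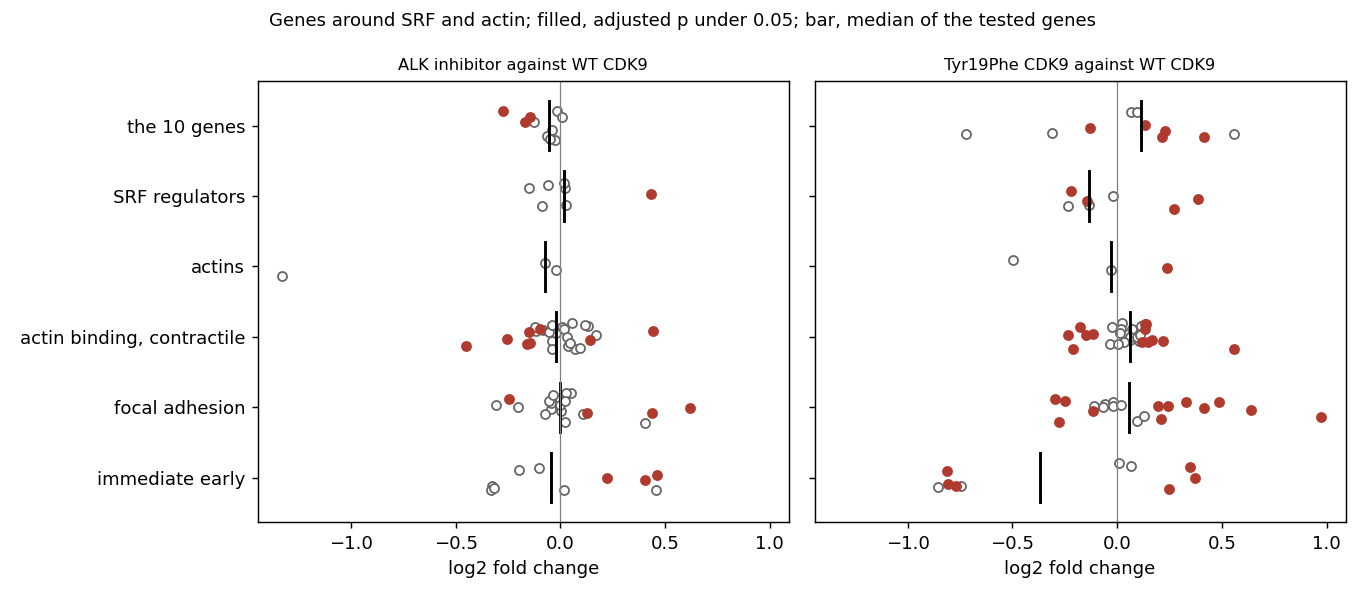
Log2 fold change of the 10 genes and of the tested genes of 5 lists around SRF and actin, for the inhibitor (left) and Tyr19Phe CDK9 (right). Each point is 1 gene, filled where the adjusted p was under 0.05, spread vertically for sight only, and the bar is the median of the row, -0.06 and 0.11 for the 10 genes.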

How the data were processed

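Total RNA of SKOV3 cells was sequenced by Novogene and mapped to hg38, and the authors deposited 1 table of raw read counts per gene for 9 libraries. The submitters' processing notes name CASAVA, HISAT2 2.0.5 and featureCounts 1.5.0-p3. The annotation release, strand setting and handling of reads that match several places are not given in the sources used here. Groups were taken from the labels. The deposited counts were scaled by TMM and tested in edgeR 4.0.16 (R 4.3.3) by the quasi-likelihood test, after filterByExpr with a minimum count of 10, in 1 fit of all 9 libraries with 1 mean per group. P-values were adjusted by Benjamini-Hochberg over 16350 genes and called under 0.05. Log2 CPM used a prior count of 2. All 10 members are named, whatever their values. From each pathway list, up to 2 called genes per direction with the smallest adjusted p are named for each comparison with WT, besides the actins, MRTFA, MRTFB, CNN3, TPM3, TPM4, ACTN4 and TAGLN2, and from the marker lists those highest or at 0 (other markers were named after their values were seen). The 3 genes most correlated with SRF and with the most strongly called member were also named. Results of 1 further list are not reported here. The members and lists were chosen with earlier results of these data known. Library pairs of a group differed by more than sampling noise. The script was tested on simulated data. Alternatives were other scalings, filters, DESeq2 1.42.0, thinning, a replicate block, fewer groups and each library left out.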

Additional observations from a re-analysis of the deposited data

Results flagged for a closer look

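For 5 of the 10 genes, the effect of Tyr19Phe CDK9 differed from that of the ALK inhibitor in the direct edgeR comparison of those groups. All 5 were higher with Tyr19Phe, beside 9.57% of all tested genes called higher and 11.1% lower. The difference of the log2 fold changes, Tyr19Phe minus inhibitor, was 0.59 for TAGLN, 0.50 for CNN2, 0.28 for TPM1, 0.26 for VCL and 0.55 for MYL9. For TAGLN, CNN2 and TPM1, the effects against WT CDK9 were called in opposite directions. For VCL the Tyr19Phe effect alone was called, and for MYL9 neither effect against WT was called. The direct difference of MYL9 was near the threshold (edgeR, adjusted p = 0.0487), and 1 of the 6 fits that left out a library called it.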

How the results depend on the processing

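ACTA2, CNN1 and MYL9 had few counts and wide intervals, and the part of depth in those widths was not tested. Of 450 comparisons of a member's value under an alternative with its reported value, 414 kept direction and side of the threshold, 12 gained a call, 11 lost one and 13 changed sign, all 13 in uncalled values. For ACTA2 with the inhibitor, the log2 fold change was 0.0086 with library size alone and 0.0679 with a replicate block. Leaving out 1 library at a time gave, with the inhibitor, -0.33 to 0.32 for ACTA2, -0.47 to 0.25 for CNN1, -0.23 to 0.22 for MYL9 and -0.0573 to 0.0357 for TPM2. With Tyr19Phe it gave -0.0133 to 0.13 for SRF and -0.65 to 0.0709 for CNN1, and -0.36 to 0.10 for CNN1 in the direct comparison. TAGLN, CNN2, TPM1 and VCL kept their Tyr19Phe calls, against WT and against the inhibitor, in every fit.

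Requiring an absolute log2 fold change of 0.5 left 0 members lower with the inhibitor, 0 higher and 0 lower with Tyr19Phe, and 3 higher in the direct comparison. Over all tested genes it left 83 higher and 114 lower with the inhibitor, 329 and 458 with Tyr19Phe, and 445 and 551 in the direct comparison. An adjusted p under 0.01 left 167 higher and 260 lower with the inhibitor, 715 higher with Tyr19Phe, and 935 and 1153 in the direct comparison. DESeq2 called 1 member lower in the direct comparison, ACTN1. Leaving out 1 library at a time gave 1 to 3 members lower with the inhibitor and 0 to 2 lower with Tyr19Phe. Over all tested genes these fits called 293 to 363 lower with the inhibitor and 1293 to 1500 lower with Tyr19Phe. The lowest count over all tested genes was without WT replicate 1 in either comparison.

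Scaling alternatives moved the median of all genes by at most 0.03. Deviations of same-numbered replicates were nearly uncorrelated over all tested genes (correlations from -0.01 to 0.03). With 3 libraries per group this cannot exclude a pairing. A replicate block called 324 genes higher and 494 lower with the inhibitor, beside 297 and 447 without it. With Tyr19Phe against WT it called 1318 higher and 1758 lower, beside 1245 and 1695. With a replicate block, MYL9 was called against WT (0.58, adjusted p = 0.0307) and TPM2 against the inhibitor (0.12, adjusted p = 0.0364), and no other member's call changed. The causes were not tested.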
